A study of Mus musculus with 9 samples.

Results

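A set of 9 transcription factors that act in blood vessel endothelium was followed across sorted mouse lung cells: the SOXF factors Sox7, Sox17 and Sox18, the ETS factors Erg, Fli1 and Ets1, the helix-loop-helix factors Tal1 and Lyl1, and the zinc finger factor Gata2. They were chosen by name, with earlier results of these data known, and make up 9 of the 19348 genes in a table of counts. All 9 passed the filter on low counts, as did 15550 genes in all. RNA-seq libraries were made from lung cells of C57BL/6J mice that all carried the genotype Col1_GFP;Foxf1_tdTomato, a green reporter for type I collagen with a red reporter for Foxf1, a forkhead factor of lung mesenchyme and endothelium. Each population had 3 libraries: DBL (replicates 1, 3 and 4) was sorted for both reporters, ColGFP (replicates 1, 2 and 3) for green without red, and TDonly (replicates 1, 2 and 3) for red without green. Age, sex, reporter constructs, sort gates and the number of animals behind each library were not given in the sources used here. The p-values therefore measure only how far these libraries spread, which may be technical.

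SOXF proteins bind DNA through an HMG box and drive arterial and lymphatic programmes of vessels, and they can partly replace one another. ERG and FLI1 bind the GGAA core of ETS sites, which are found in the control regions of nearly all endothelial genes, and ERG keeps differentiated endothelium quiescent. TAL1 and LYL1 pair with E proteins on E-boxes, and with LMO2, LDB1 and GATA2 they form a complex that serves both endothelium and blood stem cells. Fli1, Ets1, Tal1, Lyl1 and Gata2 are also used by various blood cells, so that the level of each in a cell mixture is not endothelial by definition.

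Promoters are shown for the 3 factors with an entry that held more than 1 of the motifs searched. RefSeq (GRCm38.p6) listed 8 promoters of 300 bases for 4 of the 9 factors, each running from 250 bases before an annotated start to 50 bases into the gene: 3 for Erg, 2 each for Tal1 and Gata2, and 1 for Lyl1. Both strands were searched for 6 motifs. For the ETS factors these were CCGGAA and a near variant of that motif, CAGGAA. For the SOX factors the motif was ACAAT. For GATA factors the letters were AGATAA, and the E-boxes sought were CAGATG and, as a further form, CAGCTG. Matches on either strand are in capitals, as they read 5′ to 3′ on the strand of the gene, and positions are those of the leftmost letter of a match relative to the annotated start, whose first base is 1. The regions are chr4:115056176-115056475 on the plus strand for Tal1, chr8:84701207-84701506 on the plus strand for Lyl1 and chr16:95459299-95459598 on the minus strand for Erg.

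Tal1: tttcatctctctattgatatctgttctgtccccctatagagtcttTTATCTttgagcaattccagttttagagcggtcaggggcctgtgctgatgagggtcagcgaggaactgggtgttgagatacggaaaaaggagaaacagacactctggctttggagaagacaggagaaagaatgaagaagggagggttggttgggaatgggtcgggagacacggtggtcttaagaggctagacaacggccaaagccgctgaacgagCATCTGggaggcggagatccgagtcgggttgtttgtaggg
Lyl1: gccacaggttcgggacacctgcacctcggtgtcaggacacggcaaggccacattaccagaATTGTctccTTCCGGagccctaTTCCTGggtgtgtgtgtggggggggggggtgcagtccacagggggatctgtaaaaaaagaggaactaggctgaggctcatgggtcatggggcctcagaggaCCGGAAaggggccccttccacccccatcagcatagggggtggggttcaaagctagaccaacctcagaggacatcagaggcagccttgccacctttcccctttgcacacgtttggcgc
Erg: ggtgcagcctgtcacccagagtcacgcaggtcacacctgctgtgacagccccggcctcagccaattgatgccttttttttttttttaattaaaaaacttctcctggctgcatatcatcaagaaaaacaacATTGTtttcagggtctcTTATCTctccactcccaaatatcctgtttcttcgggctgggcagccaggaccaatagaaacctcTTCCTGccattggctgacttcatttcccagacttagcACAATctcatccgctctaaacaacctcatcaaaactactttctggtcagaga

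The Tal1 promoter held AGATAA at -205 and CAGATG at 11, both on the opposite strand. The Lyl1 promoter held CCGGAA at -181 and -67, CAGGAA at -168 and ACAAT at -190. The Erg promoter shown, of 3 for that gene, held CAGGAA at -39, AGATAA at -103 and ACAAT at -120 and -2. A promoter of Gata2 (chr6:88198414-88198713) held CAGCTG at 18, and the other 4 entries held none of these letters. Such matches are common: among 32851 promoters of the same length, CCGGAA was in 14.9%, CAGGAA in 30.6%, ACAAT in 31.0%, AGATAA in 11.2%, CAGATG in 17.2% and CAGCTG in 16.3%. They are matches of letters only, with no measurement of binding. Promoters were not matched for Sox7, Sox17, Sox18, Fli1 and Ets1.

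The related factors share stretches of coding sequence, shown here because a read that lies wholly inside one cannot be assigned to either gene by its sequence alone. The longest exact runs, of which 4 are printed, lie in the HMG box of the SOXF genes and the ETS domain of the ETS genes.

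Sox17 and Sox18: gagaagcggcccttcgtggaagaggccga
Sox7 and Sox17: accccaactacaagtaccggcc
Erg and Fli1: ggaagagcaagcccaacatgaa
Fli1 and Ets1: gatccagctgtggcagtttct

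The longest, between Sox17 and Sox18, is 29 bases, followed by 22 bases for Sox7 with Sox17 and for Erg with Fli1, 21 for Fli1 with Ets1, 20 for Sox7 with Sox18 and 18 for Erg with Ets1. That of Tal1 with Lyl1 is 14 bases, no longer than those of some unrelated pairs such as Sox7 with Erg. Over all 36 pairs of the 9 coding sequences no run is longer than 29 bases. The read length was not given in the sources used here. Overlaps between genes were also checked in the annotation (GENCODE M21, GRCm38), since the strand setting of the counting is unknown. Lyl1 shares 4 exonic bases with Nfix on the opposite strand, and Sox17 shares 804 exonic bases with the gene model Gm37587 on the opposite strand. Gm37587 is not in the table of counts under that name. How reads in these overlaps were counted is not known.

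Total counts ran from 17820969 to 26147475 per library, and 17116 to 17753 genes were detected. The replicate 1 library of each population stood apart from the other 2: chi-square per degree of freedom was 53.8 to 98.8 for pairs with replicate 1 and 5.32 to 14.6 for the others. By their core numbers the replicate 1 libraries form a lower series and the other 6 libraries a higher one, here the second series. No label describes either as a batch. The second series has 2 libraries per population, and these pairs lay closer together. Smaller adjusted p within that series therefore do not mean stronger evidence than those from all 9 libraries. Foxf1 itself, the gene behind the red reporter, was at 54.5 to 62.5 CPM (read counts divided by the TMM-scaled library size) in ColGFP, 87.3 to 113 in DBL and 229 to 279 in TDonly. Col1a1, one of the 2 chains of type I collagen, was at 4937 to 9590 CPM in ColGFP, 9536 to 13220 in DBL and 373 to 1565 in TDonly. The summed level of 10 genes that define endothelium (Pecam1, Cdh5, Kdr, Tie1, Cldn5, Emcn, Egfl7, Ramp2, Esam and Mmrn2) was 569.5 to 876 CPM in ColGFP, 3231 to 4214 in DBL and 9485 to 10740 in TDonly.

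Every one of the 9 factors was lowest in ColGFP, intermediate in DBL and highest in TDonly. In the quasi-likelihood test of edgeR, adjusted by Benjamini-Hochberg over every gene tested, 9 of 9 had a higher level in DBL than in ColGFP (8.04% of all genes did), 9 of 9 higher in TDonly than in ColGFP (21.6% of all genes) and 9 of 9 higher in TDonly than in DBL (12.6% of all genes). All 9 differed at least 2-fold in each comparison, which 4.66%, 11.5% and 4.51% of all genes did in the same direction. For all 9 the libraries of no 2 populations overlapped; this held in the same direction for 16.9%, 27.3% and 23.2% of all genes. The 3 comparisons share their libraries, so they are not independent of each other. Both steps of this order were called for 811 of 15550 genes, or 5.22%. The median log2 fold change of the 9 factors was 2.22 for DBL against ColGFP, 3.81 for TDonly against ColGFP and 1.42 for TDonly against DBL, where the median of all genes was 0.00, 0.02 and 0.04. In bulk libraries of sorted cells, fewer cells that express a factor and less of its RNA per cell cannot be told apart.

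**Figure D1:**
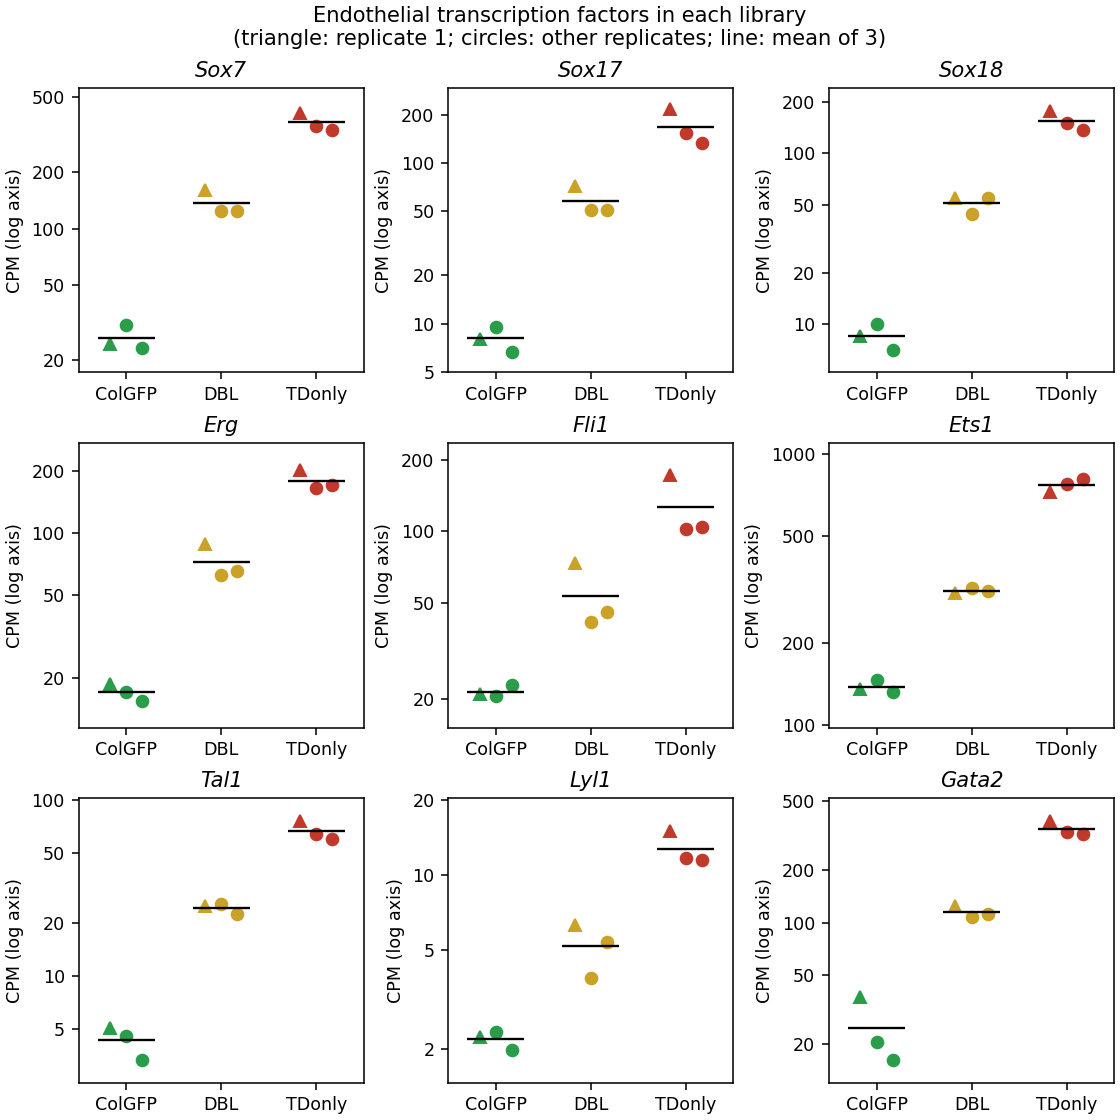
Level of each factor in every library, in CPM on a log axis, with ColGFP in green, DBL in yellow and TDonly in red; triangles are replicate 1, circles the other replicates and lines the mean of 3. In every panel the 3 populations do not overlap, and for Sox7, Sox17, Fli1 and Lyl1 the triangle lies above both circles in DBL and TDonly but not in ColGFP.

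Sox17 and Sox18, both SOXF factors, had the largest differences of DBL and of TDonly from ColGFP among the 9. Sox7 (chr14:63943673-63950732, plus strand), which acts early in vessel development, was at 24.5, 30.7 and 23.2 CPM in ColGFP replicates 1, 2 and 3. It was at 161, 125 and 125 CPM in DBL replicates 1, 3 and 4, and at 412, 352 and 336 CPM in TDonly replicates 1, 2 and 3. The 3 populations were separate, and replicate 1 was the highest library in DBL and in TDonly. Sox7 was higher in DBL than in ColGFP by a log2 fold change of 2.39 ± 0.16 (SE; adjusted p = 2.00e-05) and in TDonly than in DBL by 1.42 ± 0.15 (adjusted p = 0.000155).

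Sox17 (chr1:4490931-4497354, minus strand), a factor of arterial identity, was at 8.002, 9.55 and 6.70 CPM in ColGFP and at 72.2, 50.8 and 50.8 CPM in DBL. It was at 217, 154 and 134 CPM in TDonly. The log2 fold change of TDonly against ColGFP was 4.38 ± 0.24 (adjusted p = 1.04e-06), the largest of the 9 factors, and that of TDonly against DBL was 1.54 ± 0.21 (adjusted p = 0.000589). Replicate 1 was above the mean of the other libraries by 0.51 on the log2 scale in DBL and 0.59 in TDonly, and level with it in ColGFP at 0.00. Within the second series the log2 fold change of TDonly against ColGFP was 4.14 (adjusted p = 1.89e-14), against 4.75 for the replicate 1 libraries alone.

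Sox18 (chr2:181669836-181671640, minus strand), which is known for the onset of lymphatic development, was at 8.49, 10.04 and 7.07 CPM in ColGFP. It was at 54.8, 44.1 and 54.8 CPM in DBL and at 177, 151 and 136 CPM in TDonly. The gap from DBL to TDonly was wider than the spread of either, with a log2 fold change of 1.59 ± 0.15 (adjusted p = 0.000108). Against ColGFP, TDonly was higher by 4.18 ± 0.17 (adjusted p = 2.48e-07). Lymphatic genes were measured beside it: of 5 lymphatic markers tested (6 listed), 5 were higher in TDonly than in ColGFP and 2, Lyve1 and Flt4, in DBL than in ColGFP. Their summed level was 61.6 to 113 CPM in ColGFP, 228 to 281 in DBL and 625 to 636 in TDonly. Lyve1 made up 28.1% to 62.9% of it. The other 4 summed to 44.3 to 61.65 CPM in ColGFP, 84.5 to 124.9 in DBL and 242.5 to 271.3 in TDonly. In TDonly against ColGFP the log2 fold change was 3.635 for Lyve1 and 3.17 for Flt4. It was 0.94 for Prox1, 0.96 for Mmrn1 and 0.79 for Reln. Prox1, the lymphatic master factor, was at 6.51 ± 2.06 CPM in TDonly (SD, n = 3). What share lymphatic cells have in the Sox18 signal was not tested.

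Among the 3 ETS factors, Erg had the largest differences from ColGFP and Ets1 the highest CPM. Erg (chr16:95359169-95586593, minus strand) was at 18.6, 17.0 and 15.5 CPM in ColGFP, 88.5, 62.6 and 65.4 CPM in DBL, and 201, 165 and 170.1 CPM in TDonly. Its log2 fold change was 2.08 ± 0.15 for DBL against ColGFP (adjusted p = 3.38e-05) and 3.39 ± 0.16 for TDonly against ColGFP (adjusted p = 4.85e-07). Replicate 1 exceeded the mean of the other libraries by 0.19 on the log2 scale in ColGFP, 0.47 in DBL and 0.26 in TDonly, which is small beside these differences.

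Fli1 (chr9:32422204-32542861, minus strand), the closest relative of Erg, was at 20.9, 20.4 and 22.7 CPM in ColGFP. It was at 73.8, 41.7 and 46.1 CPM in DBL and at 173, 102 and 104 CPM in TDonly. Replicate 1 was far above the other libraries in DBL and in TDonly, by 0.75 on the log2 scale in each, and not in ColGFP, at -0.05. The log2 fold change of DBL against ColGFP was 1.34 ± 0.26 (adjusted p = 0.00720). It was 1.04 within the second series (adjusted p = 1.76e-07) and 1.82 for the replicate 1 libraries alone, so the order of the populations was the same in both sets and the size differed. For TDonly against DBL the corresponding values were 1.23 ± 0.25 (adjusted p = 0.00487), 1.19 (adjusted p = 5.36e-09) and 1.23.

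Ets1 (chr9:32636221-32757820, plus strand), which serves endothelium and lymphocytes, was at 136, 147 and 132 CPM in ColGFP. It was at 307, 321 and 311 CPM in DBL and at 724, 772 and 811 CPM in TDonly. Its libraries were close together in each population, and replicate 1 was the lowest library of DBL and of TDonly. The log2 fold change was 1.18 ± 0.09 for DBL against ColGFP (adjusted p = 5.00e-05) and 1.30 ± 0.09 for TDonly against DBL (adjusted p = 5.49e-05).

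The 2 helix-loop-helix factors differed in level and in span. Tal1 (chr4:115056426-115071755, plus strand), which starts the blood and vessel programme, was at 5.01, 4.54 and 3.33 CPM in ColGFP. It was at 24.96, 25.6 and 22.5 CPM in DBL and at 75.8, 64.5 and 59.8 CPM in TDonly. Its log2 fold change was 2.51 ± 0.16 for DBL against ColGFP (adjusted p = 2.00e-05) and 3.96 ± 0.17 for TDonly against ColGFP (adjusted p = 2.98e-07). Lyl1 (chr8:84701457-84704715, plus strand), its close relative, was at 2.24, 2.36 and 1.99 CPM in ColGFP, 6.33, 3.87 and 5.41 CPM in DBL, and 15.1, 11.7 and 11.6 CPM in TDonly. These levels rest on 39 to 387 reads per library, the fewest of the 9 factors. The populations still did not overlap, with log2 fold changes of 1.25 ± 0.22 for DBL against ColGFP (adjusted p = 0.00450) and 1.29 ± 0.20 for TDonly against DBL (adjusted p = 0.00119). Nfix, with which Lyl1 shares 4 exonic bases, had the opposite order, with means of 433, 370 and 188 CPM in ColGFP, DBL and TDonly.

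Gata2 (chr6:88193891-88207032, plus strand) was at 37.6, 20.4 and 16.2 CPM in ColGFP, where replicate 1 was the highest library. It was at 125, 108 and 112 CPM in DBL and at 385, 334 and 326 CPM in TDonly. In ColGFP replicate 1 exceeded the mean of the others by 1.04 on the log2 scale, the largest such gap among the 27 sets of libraries. The log2 fold change of DBL against ColGFP was 2.22 ± 0.27 (adjusted p = 0.000547), and it was 2.61 within the second series (adjusted p = 2.48e-12) and 1.74 for the replicate 1 libraries alone. For TDonly against ColGFP it was 3.81 ± 0.28 (adjusted p = 5.93e-06), 4.15 (adjusted p = 1.05e-15) and 3.36. The same ColGFP library also had the highest sums of leukocyte markers (2493 CPM against 1324 and 1067), epithelial markers (9873 against 4997 and 3378) and endothelial markers (876 against 676 and 569.5). It was also highest for mast cell and basophil markers (31.7 against 27.3 and 20.2) and lymphatic markers (113 against 74.5 and 61.6). The same held for pericyte and smooth muscle markers (2388 against 1310 and 1412). Fibroblast markers (21340 against 37430 and 36620) and erythroid markers (59.4 against 164.7 and 180.7) were lowest there. Its megakaryocyte sum lay between those of the others. Without Hdc its mast cell sum was the lowest, at 1.34 CPM against 2.66 and 1.66. Without Lyz2 its leukocyte sum was the lowest of the 3 ColGFP libraries, which ran from 235 to 295 CPM. The part of such cells in its Gata2 level was not tested.

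**Figure D2:**
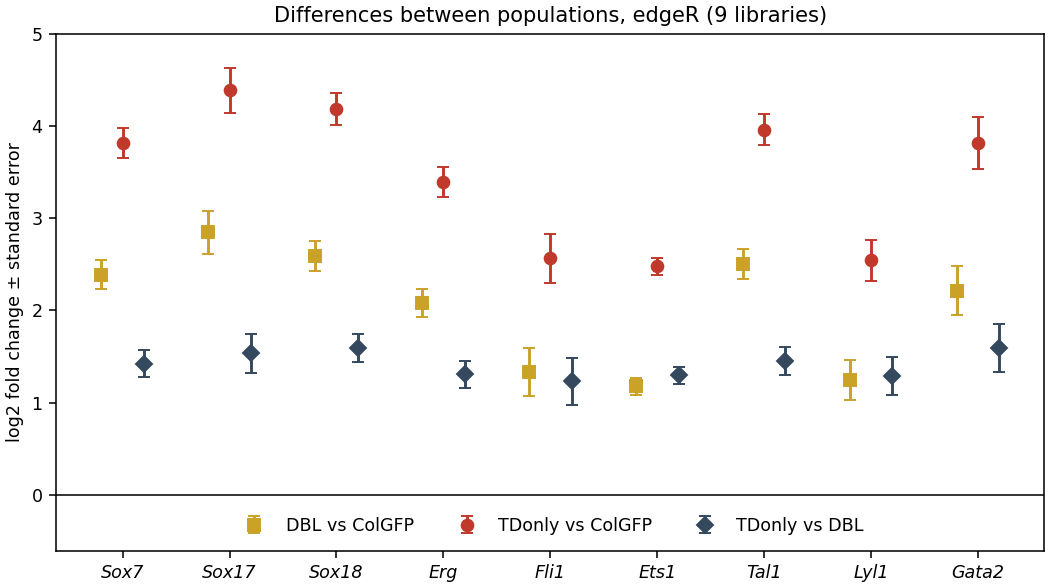
Log2 fold change of each factor in the 3 comparisons (squares, DBL against ColGFP; circles, TDonly against ColGFP; diamonds, TDonly against DBL), with bars of 1 standard error from edgeR on all 9 libraries. The diamonds lie in a narrow band from 1.23 for Fli1 to 1.60 for Gata2, while the squares run from 1.18 for Ets1 to 2.84 for Sox17.

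Levels of different genes can be compared only per length, here as CPM per kilobase of the merged exons of all annotated isoforms. On that scale the order of the factors changed with the population. The isoforms present and the annotation used for counting are unknown, so the order between genes is approximate. In TDonly, Sox7 was at 111 ± 12.2 (SD, n = 3), Sox18 at 95.5 ± 12.7 and Ets1 at 90.7 ± 5.15, whose libraries overlapped with those of the neighbour in that order. Gata2 at 64.5 ± 5.95 was separate from Ets1 above it and from Erg below it. Erg at 51.6 ± 5.52, Fli1 at 36.3 ± 11.6 and Sox17 at 35.2 ± 9.05 overlapped in turn, and Tal1 at 15.2 ± 1.87 and Lyl1 at 7.10 ± 1.11 stood below them without overlap. In DBL the order began with Sox7 at 41.4 ± 6.31 and Ets1 at 36.9 ± 0.863, which overlapped, and then Sox18 at 31.6 ± 3.80, which did not overlap with Ets1. In ColGFP, Ets1 was the highest at 16.3 ± 0.916, clear of Sox7 at 7.92 ± 1.204, which was clear of Fli1 at 6.12 ± 0.348. Fli1, Sox18, Erg and Gata2 overlapped in turn there, and Lyl1 at 1.22 ± 0.105 and Tal1 at 0.979 ± 0.198 overlapped at the bottom.

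The factors differed from one another more in their ColGFP level than in their DBL level when each was set against its own TDonly level. As a percentage of the TDonly mean, the ColGFP mean was 4.81% for Sox17, 5.52% for Sox18, 6.43% for Tal1, 7.11% for Gata2, 7.12% for Sox7 and 9.53% for Erg. It was 16.9% for Fli1, 17.2% for Lyl1 and 17.97% for Ets1. The 10 endothelial markers lay between 5.22% (Emcn) and 9.30% (Esam), so that Erg, Fli1, Lyl1 and Ets1 were above all 10, Erg by a small margin, and Sox17 was below all 10. In the replicate 1 libraries alone Erg, at 9.25%, was below Kdr (9.78%), Cldn5 (10.43%) and Esam (11.02%). Within the second series Erg, at 9.69%, was above all 10. Gata2, at 5.56% there, was also below all 10, of which Egfl7 was the lowest at 5.74%. The DBL mean was 33.1% to 42.6% of TDonly for the 9 factors and 34.2% to 40.1% for the 10 markers.

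To compare factor and marker within each library, the log2 ratio of each factor to the summed 10 markers was taken. In ColGFP the ratio of Ets1 was -2.69, -2.20 and -2.11 in replicates 1, 2 and 3. It was -3.78, -3.33 and -3.41 in DBL and -3.89, -3.62 and -3.60 in TDonly, so that every ColGFP library was above every other. On the log2 scale the ratio in DBL minus that in ColGFP was -1.17 for Ets1, -1.16 for Lyl1 and -1.07 for Fli1. In TDonly minus ColGFP it was -1.37 for Ets1, -1.355 for Lyl1 and -1.32 for Fli1, in all cases without overlap. Erg went the same way over a smaller distance, with differences of -0.29 and -0.46 that also did not overlap. For Sox17 the ratio was higher in DBL than in ColGFP by 0.47 without overlap, and higher in TDonly by 0.51 with overlap. The ratios of Sox7, Sox18, Tal1 and Gata2 overlapped between ColGFP and both other populations, with differences from -0.05 to 0.33.

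Between DBL and TDonly the differences in ratio ran from -0.26 for Fli1 to 0.11 for Gata2, and Erg at -0.17 was the one factor without overlap. An exact two-sided permutation test of 3 against 3 libraries cannot give a p below 0.1. Of the 27 comparisons of ratios, 10 reached that value, and after Benjamini-Hochberg adjustment over the 27 the smallest p was 0.27, so none passed the threshold. Differences of ratios near 0 do not show that factor and markers were equal in proportion, since no interval was computed for them.

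**Figure D3:**
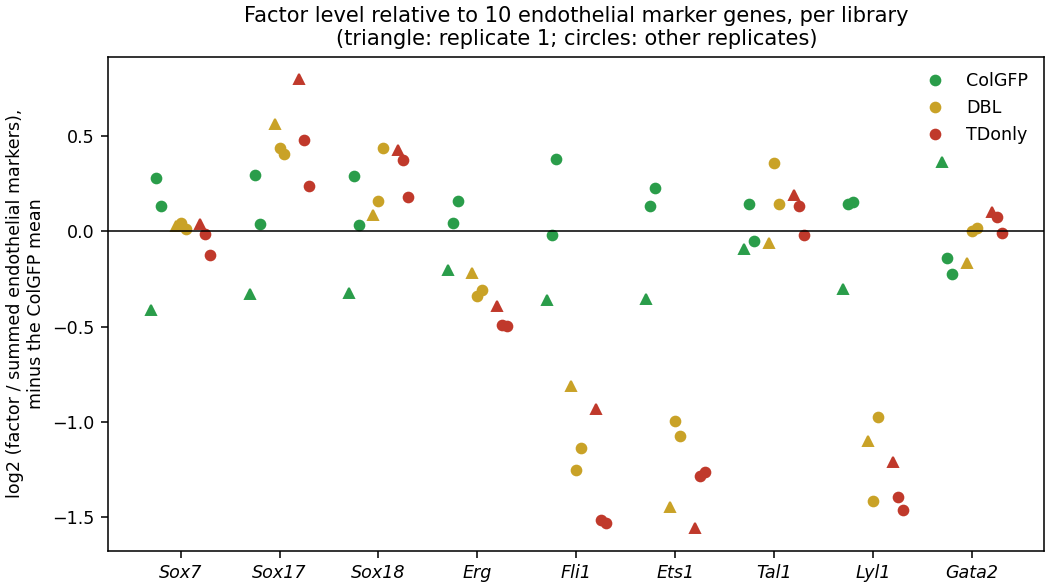
Log2 ratio of each factor to the summed level of 10 endothelial markers, per library, drawn relative to the ColGFP mean of that factor (green, ColGFP; yellow, DBL; red, TDonly; triangles, replicate 1). For Fli1, Ets1 and Lyl1, and by a small margin for Erg, all DBL and TDonly libraries lie below all ColGFP libraries. Those of Sox7, Tal1 and Gata2 are spread around 0.

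Markers of the other cells in which Fli1, Ets1, Lyl1, Tal1 and Gata2 act were measured in the same libraries. The summed level of 20 leukocyte markers, all detected in every library, was 1067 to 2493 CPM in ColGFP, 1306 to 1601 in DBL and 2057 to 3156 in TDonly. Lyz2, a lysozyme gene, made up 72.3% to 95.9% of that sum. Its means were 1368, 1319 and 2263 CPM in ColGFP, DBL and TDonly. Those of the epithelial marker Sftpc were 4495, 4630 and 7639 CPM. Which cells the Lyz2 reads came from was not tested. The other 19 markers summed to 235 to 295 CPM in ColGFP, 53.9 to 245 in DBL and 168 to 628 in TDonly. By edgeR none of the 20 differed between DBL and ColGFP, with 0 at an unadjusted p under 0.05 and 0 by DESeq2 and by limma-voom, while 1 was higher and 2 were lower within the second series. In TDonly 2 were higher than in ColGFP and 3 higher than in DBL, and within the second series 15 and 16 were. Of all genes 21.6% and 12.6% were higher in these comparisons, and 26.8% and 19.4% within the second series. The sum of 8 mast cell and basophil markers, a lineage known for Gata2, was 20.2 to 31.7 CPM in ColGFP, 30.4 to 31.8 in DBL and 57.0 to 69.5 in TDonly. Hdc, which makes histamine, was 90.3% to 99.2% of that sum, and the other 7 markers summed to no more than 2.66 CPM in any library. Cpa3, a mast cell protease, was at 1.44, 0.833 and 0.446 CPM in the 3 populations without a call, Fcer1a was at 0 in all ColGFP libraries and Ms4a2 at 0 in all DBL libraries. The sum of 9 megakaryocyte and platelet markers, a lineage known for Fli1, Tal1 and Gata2, was 21.2 to 28.2 CPM in ColGFP, 30.5 to 37.7 in DBL and 42.6 to 63.8 in TDonly. Of the 9, 5 were higher in TDonly than in ColGFP (21.6% of all genes) and 2 in TDonly than in DBL (12.6%). In DBL against ColGFP 0 were called higher (8.04% of all genes). Of 11 erythroid markers 8 were in the table of counts. Their sum was 59.4 to 181 CPM in ColGFP, 27.9 to 137 in DBL and 39.0 to 178.5 in TDonly, lowest in each replicate 1. Hbb-bs made up 78.9% to 87.4% of it. Of 5 tested, 1 was lower in TDonly than in ColGFP and 0 were called in the other comparisons. The part of these cells in the levels of the factors was not tested.

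The other members of the ETS family were called in both directions. Of 23 other ETS genes 20 were tested: 5 were higher and 1 lower in DBL than in ColGFP, 10 higher and 3 lower in TDonly than in ColGFP, and 6 higher and 2 lower in TDonly than in DBL. Their median log2 fold change was 0.09, 0.66 and 0.53 in these comparisons. Of all genes 6.47%, 24% and 17.3% were lower in them. Within the second series 16.3%, 26.8% and 19.4% of all genes were higher and 12.6%, 29.8% and 23.6% lower. Elk3, a ternary complex factor that is known in vessels, had the largest difference among those that were higher, at 54.9 ± 8.62 CPM in ColGFP, 150 ± 13.5 in DBL and 354 ± 15.0 in TDonly. Its log2 fold change was 2.69 ± 0.13 for TDonly against ColGFP (adjusted p = 5.51e-07). Etv1, a PEA3 factor, was opposite, at 42.8 ± 1.93, 13.3 ± 2.47 and 6.10 ± 2.71 CPM, with -2.81 ± 0.31 for TDonly against ColGFP (adjusted p = 6.01e-05). Elf4 was higher in DBL than in ColGFP by 0.95 ± 0.12 (adjusted p = 0.000579) and was at 69.2 CPM in DBL and 67.1 in TDonly. The count of higher ETS genes in DBL against ColGFP was 9 within the second series and 2 without ColGFP replicate 2. It was 3 without ColGFP replicate 3, DBL replicate 1 or DBL replicate 3. The 2 lower ETS genes in TDonly against DBL became 0 without DBL replicate 3 and 1 without any 1 of ColGFP replicates 2 and 3, DBL replicates 1 and 4, and TDonly replicates 2 and 3. In that comparison 13 ETS genes were higher within the second series.

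Of 17 other SOX genes, 14 were in the table and 11 tested. In DBL against ColGFP 2 were higher and 1 lower, in TDonly against ColGFP 3 and 3, and in TDonly against DBL 2 and 5, with medians of 0.54, -0.25 and -0.79. Sox11, a SOXC factor of developing tissue, was at 6.79 ± 0.281 CPM in ColGFP, 29.8 ± 6.56 in DBL and 73.7 ± 5.43 in TDonly, with a log2 fold change of 3.44 ± 0.16 for TDonly against ColGFP (adjusted p = 4.85e-07). Sox13, a SOXD factor, was at 29.5 ± 9.58, 78.8 ± 6.17 and 217 ± 13.6 CPM. Sox9, the SOXE factor of cartilage and distal lung epithelium, was at 20.4 ± 10.01 CPM in ColGFP, 23.0 ± 7.14 in DBL and 2.59 ± 0.839 in TDonly, lower in TDonly than in DBL with a log2 fold change of -3.15 ± 0.46 (adjusted p = 0.000771). Sox5 was lower at each step, with log2 fold changes of -0.99 in DBL against ColGFP and -1.05 in TDonly against DBL. The count of higher SOX genes in DBL against ColGFP was 6 within the second series and 4 without TDonly replicate 1. That of lower SOX genes in TDonly against DBL was 3 without DBL replicate 1, DBL replicate 4 or TDonly replicate 2.

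Both the GATA genes and their FOG cofactors held genes called higher and genes called lower in TDonly against ColGFP. Gata3 was at 2.14 ± 0.302 CPM in ColGFP, 8.91 ± 2.16 in DBL and 27.9 ± 3.47 in TDonly, with a log2 fold change of 3.71 ± 0.21 for TDonly against ColGFP (adjusted p = 1.24e-06). The cofactor Zfpm1, or FOG1, was also higher at both steps. Gata5 was at 70.1 ± 1.39, 19.5 ± 0.868 and 4.68 ± 2.16 CPM, lower in TDonly than in ColGFP with a log2 fold change of -3.91 ± 0.31 (adjusted p = 8.06e-06). Gata4 and Zfpm2, or FOG2, were lower in the same comparison, at -1.70 and -2.96. Of the 6 tested of 7 listed, 2 were higher and 1 lower in DBL than in ColGFP, 2 and 3 in TDonly than in ColGFP, and 2 and 4 in TDonly than in DBL. The lower count in DBL against ColGFP was 2 within the second series and without TDonly replicate 1.

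Partners of TAL1 and LYL1 were mixed. Their list also holds Id1, Id2, Id3 and Id4, inhibitors of E proteins, and the counts include these. Of 20 listed, 19 were tested, and 5 were higher and 2 lower in DBL than in ColGFP, 7 and 7 in TDonly than in ColGFP, and 6 and 6 in TDonly than in DBL. Lmo2, the LIM protein that bridges TAL1 to GATA factors, was at 12.0 ± 2.25 CPM in ColGFP, 41.9 ± 4.602 in DBL and 81.1 ± 5.57 in TDonly. Its log2 fold change for TDonly against ColGFP was 2.75 ± 0.15 (adjusted p = 8.87e-07). Its adaptor Ldb1 was at 139 ± 5.07, 120 ± 9.19 and 125 ± 13.6 CPM and was not called in any of the 3 comparisons, whereas the related Ldb2 was higher at both steps, by 0.96 and 1.23 (log2). The corepressor Cbfa2t3, or ETO2, was higher by 0.78 and 1.195, and its relative Runx1t1, or ETO, was lower in TDonly than in ColGFP at -2.03. Lower in that comparison with smaller adjusted p by edgeR were Ssbp2 and Lmo4. Ssbp2 was at -2.07 ± 0.19 (adjusted p = 2.24e-05) and Lmo4 at -1.16 ± 0.12 (adjusted p = 4.10e-05). Of the E proteins, Tcf3 was higher in TDonly than in ColGFP by 0.39 ± 0.10 (log2; adjusted p = 0.0125), Tcf12 was lower at -0.50 ± 0.09 (adjusted p = 0.00122), and Tcf4 was at 308 ± 28.4, 306 ± 33.4 and 383 ± 96.2 CPM without a call. Among the inhibitors of E proteins Id1 was higher in TDonly than in ColGFP by 1.81 ± 0.17 (log2). Id3 and Id4 were lower at -1.37 ± 0.17 and -2.12 ± 0.34, and Id2 was not called in that comparison. The count of lower partners in DBL against ColGFP was 4 within the second series, 5 without TDonly replicate 1, and 0 without any 1 of ColGFP replicates 2 and 3, DBL replicates 1, 3 and 4, and TDonly replicates 2 and 3.

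**Figure D4:**
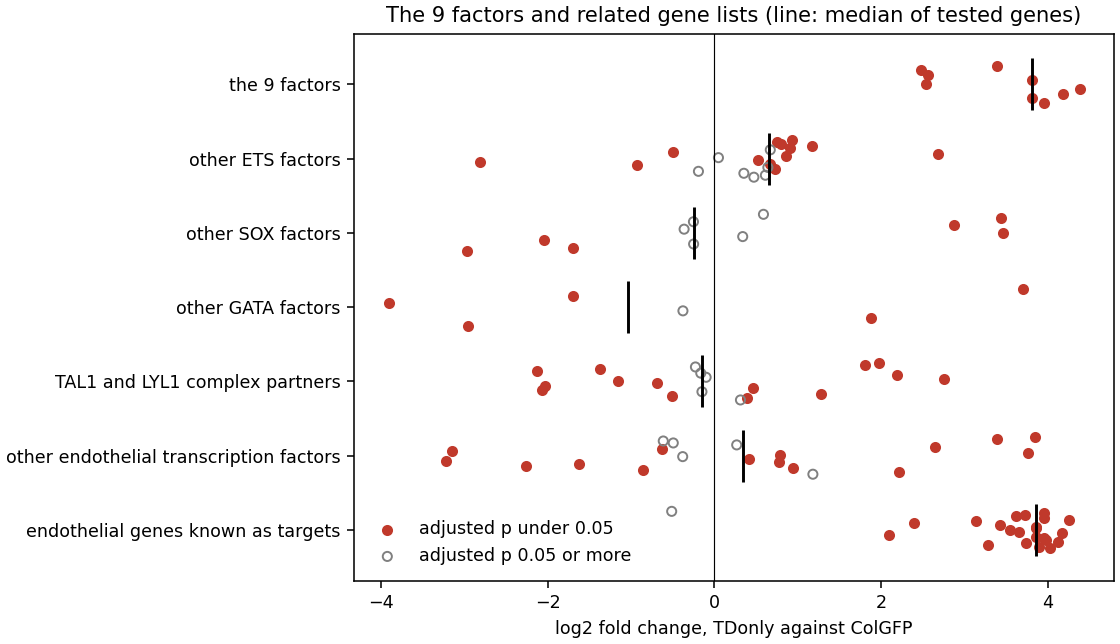
Log2 fold change of TDonly against ColGFP for the 9 factors, their families, their partners and endothelial genes (filled, adjusted p under 0.05; open, not; line, median of the tested genes of each list). The 9 factors and 22 of the 23 endothelial genes lie above 2, while the other ETS, SOX and GATA genes and the TAL1 partners lie on both sides of 0.

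Another 20 transcription factors known in endothelium were called in both directions. In TDonly against ColGFP 9 were higher and 6 lower, in TDonly against DBL 8 and 8, and in DBL against ColGFP 5 were higher. Tbx3 had the smallest adjusted p by edgeR among those higher in TDonly than in ColGFP (2.37e-07), with a log2 fold change of 2.22 ± 0.09. Bcl6b, a repressor expressed in vessels, was at 11.8 ± 1.70 CPM in ColGFP, 66.3 ± 16.5 in DBL and 170 ± 31.8 in TDonly, and the homeobox factor Hhex at 2.54 ± 0.784, 12.4 ± 1.59 and 34.6 ± 3.19 CPM. Epas1, the hypoxia-inducible factor of lung vessels, was the most abundant of them in DBL and TDonly, at 837 ± 275, 3335 ± 28.6 and 8781 ± 409 CPM in ColGFP, DBL and TDonly; it was chosen after its values were seen. Nr2f2, the venous factor also found in mesenchyme, was lower in TDonly than in ColGFP at a log2 fold change of -2.26 ± 0.17 (adjusted p = 7.25e-06). Heyl and Meox2 were lower at -3.14 and -3.22, both of which are also genes of mural or mesenchymal cells. None of the 20 was called lower in DBL than in ColGFP by edgeR, where 2 had an unadjusted p under 0.05, nor by DESeq2 or limma-voom; 3 were lower within the second series, 2 without TDonly replicate 1 and 1 without ColGFP replicate 1. Fibroblast markers stood beside these lower calls: the sum of 10 was 21340 to 37430 CPM in ColGFP, 37290 to 44830 in DBL and 1610 to 5766 in TDonly, and 10 of 10 were lower in TDonly than in ColGFP. Their part in the result was not tested.

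Endothelial genes known as targets of such factors formed another list. Of its 23 genes, 22 were called higher in each of the 3 comparisons, with median log2 fold changes of 2.33, 3.86 and 1.47; 9 of the 23 are also among the 10 endothelial markers. Flt1, a VEGF receptor, was at 50.4 ± 7.16 CPM in ColGFP, 262 ± 27.6 in DBL and 732 ± 20.6 in TDonly. Icam2, an adhesion gene known as an ERG target, was at 15.5 ± 2.36, 77.9 ± 5.94 and 224 ± 7.15 CPM, and the angiopoietin receptor Tek at 108 ± 6.13, 434 ± 18.7 and 1044 ± 87.6 CPM. The exception was Angpt2, the Tek ligand of activated endothelium, at 68.9 ± 11.6 CPM in ColGFP, 41.3 ± 21.5 in DBL and 48.3 ± 46.2 in TDonly. It was not called in any of the 3 comparisons over all 9 libraries (adjusted p from 0.480 to 0.800). Within the second series 22 of the 23 were higher and 1 was lower in each comparison. Notch1 and Ephb4 had the smallest differences among the 22 called over all 9 libraries, at 2.09 ± 0.14 and 2.40 ± 0.13 for TDonly against ColGFP (log2).

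The genes with the pattern most like each factor were found by Pearson's r of log2 CPM over the 9 libraries among 9414 candidate genes. These r values are a description, since they are set almost wholly by the difference between populations, which all 9 libraries share. For Sox7 they were N4bp3 (r = 0.9987) and Scn3b (0.9986), for Sox17 Hecw2 and Spns2 (both 0.9989) and for Sox18 Dll4 (0.9984) and N4bp3 (0.9979). For Erg they were Arap3 (0.9993) and Ushbp1 (0.9992), for Fli1 Mkl2 (0.9969) and Lrch1 (0.9968) and for Ets1 Arhgef3 (0.9983) and Gltp (0.9978). For Tal1 they were Clec1a (0.9982) and Cyyr1 (0.9981), for Lyl1 Nod2 (0.9966) and Fkbp1a (0.9946) and for Gata2 Afap1l1 (0.9989) and Slco2a1 (0.9987). Dll4 is the Notch ligand of arterial endothelium, and Slco2a1 is the prostaglandin transporter. Among the 9 factors themselves r ran from 0.9496 for Fli1 with Ets1 to 0.9982 for Sox7 with Sox17. After removal of the population means, r over the 9 libraries was 0.9438 for Sox7 with Sox17 and -0.6643 for Fli1 with Ets1, where the replicate 1 libraries were high for Fli1 and low for Ets1 in DBL and TDonly.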

How the data were processed

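RNA-seq of 9 libraries was analysed from 1 table of raw read counts per gene symbol, deposited by the authors without normalisation. The submitters' processing notes name cutadapt, TopHat and HTSeq, with the build mm10; versions, strand setting and annotation were not given in the sources used here. The series design text names a ribogone depletion of ribosomal RNA; the labels' extraction protocol describes whole frozen lung, and how it applies to sorted cells is not stated. Columns were matched to samples by sequencing core number, and 3 columns that match no sample were not used. Of 19348 symbols, 17345 are in GENCODE M21, 1673 matched by synonym and 330 did not match.

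Counts were filtered with filterByExpr (minimum count 10) and fitted in edgeR 4.0.16 (R 4.3.3) with TMM factors and 1 mean per population (6 residual degrees of freedom, prior 3.42), with two-sided tests adjusted by Benjamini-Hochberg over 15550 genes at 0.05. A standard error is the log2 fold change over the square root of F. Ratios to markers used log2 CPM with a prior count of 2. Alternatives were limma-voom (limma 3.58.1), DESeq2 1.42.0, other scaling, filters and designs, and leaving out libraries. The factors and gene lists were chosen with earlier results of these data known. Named list genes were drawn from the 3 with the smallest adjusted p per list, comparison and direction, and not all of those were named. Epas1, Hdc, Cpa3, Lyz2, Sftpc, Hbb-bs, Ldb1, Tcf3, Tcf4, Id1, Id2, Id4, Notch1, Ephb4, Angpt2, Prox1, Mmrn1 and Reln were named after their values were seen. The marker sums without Lyz2, Hdc or Lyve1 were also added then. Depth limits precision mainly for Lyl1, at 39 to 387 reads.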

Additional observations from a re-analysis of the deposited data

How the results depend on the processing

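For each of the 9 factors, in each of the 3 comparisons, direction and call were the same under every alternative run (21 settings), and the count was 9 of 9 each time. The largest adjusted p was 0.0350, for Fli1 in DBL against ColGFP; its log2 fold change ranged from 1.04 to 1.49 there and from 0.94 to 1.53 in TDonly against DBL. Gata2 ranged from 1.98 to 2.68 in DBL against ColGFP. The replicate number pairs nothing that the labels describe: deviations of same-numbered libraries correlated at 0.016 to 0.527, and not all above 0.1. Differently numbered libraries ran from -0.424 (DBL replicate 4 with TDonly replicate 1) to 0.34 (DBL replicate 4 with TDonly replicate 3). By core number, DBL replicate 3 stands next to replicate 2 of ColGFP and TDonly, and DBL replicate 4 next to their replicate 3. A block by that order was not fitted, and a replicate block leaves DBL replicate 4 without a partner. With a replicate block the factors stayed at 9 of 9, the genes called were 1581, 6482 and 3594 in place of 2256, 7082 and 4657, lower genes in DBL against ColGFP were 626 in place of 1006, and higher ETS genes there were 2 in place of 5. Scaling by library totals moved the median of all genes to 0.06, 0.16 and 0.13 and the split of higher to lower genes in TDonly against ColGFP from 3355 and 3727 to 4363 and 2998.

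Within the second series, all genes higher were 2543 in place of 1250 and lower 1969 in place of 1006 in DBL against ColGFP, and 3031 were higher in place of 1965 in TDonly against DBL. Leaving out 1 library gave 581 to 1298 lower genes in DBL against ColGFP and 1155 to 2020 higher genes in TDonly against DBL. In DBL against ColGFP, lower ETS genes were 2 in place of 1 with the series as covariate and within the second series, lower SOX genes 2 in place of 1 within it, and higher SOX genes 4 in place of 2 by DESeq2. Lower TAL1 partners were 1 in place of 2 with library totals, no filter, only the 2 populations compared or without the 20 most abundant genes. Lower endothelial factors were 1 in place of 0 with only the 2 populations compared or a replicate block and 2 with the series as covariate. In TDonly against DBL, lower ETS genes were 1 in place of 2 with library totals, upper-quartile factors, either other filter or a replicate block and 0 with only the 2 populations compared. A filter of 10 CPM in 3 libraries gave 2 lower SOX genes in place of 5 and 5 lower endothelial factors in place of 8, with fewer genes tested, and 4 SOX genes in place of 2 were higher within the second series. In place of 0, 1 endothelial target gene was lower in TDonly against ColGFP without TDonly replicate 1.

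Small differences in the log2 ratio to markers changed sign. With Cdh5 alone as denominator they were -0.030 for Sox7 in DBL against ColGFP, -0.025 for Tal1 and -0.069 for Gata2 in TDonly against ColGFP, and -0.029 for Sox17 in TDonly against DBL. Within the second series they were -0.177 for Sox7 and 0.192 for Gata2 in DBL against ColGFP, and -0.064 for Sox17 and -0.020 for Sox18 in TDonly against DBL. Leaving out 1 library gave -0.177 to 0.171 for Sox7 and -0.160 to 0.133 for Gata2 in DBL against ColGFP. In TDonly against ColGFP it gave -0.239 to 0.109 for Sox7 and -0.056 to 0.237 for Gata2, and in TDonly against DBL -0.110 to 0.171 for Sox17 and -0.151 to 0.060 for Tal1. The cause was not tested.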
